A study of Homo sapiens with 12 samples.

Results

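The clustered protocadherins are cell-surface adhesion proteins encoded in 3 neighbouring gene clusters, alpha (PCDHA), beta (PCDHB) and gamma (PCDHG), on human chromosome 5. The genes described here were chosen by symbol, as every PCDHA, PCDHB and PCDHG gene of the count table that is not a pseudogene, whatever its expression. The table holds 53 of them among 59653 gene symbols: 15 alpha, 16 beta and 22 gamma genes. PCDHGB4 was singled out within the gamma cluster because its rise was already known from these libraries, so its own change is given as a description, with no test. All 53 genes passed the filter on low counts that left 24671 genes for testing.

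RNA was sequenced from neurons grown out of induced pluripotent stem cells that were made from IMR-90, an established human fibroblast line, in a comparison of a control siRNA with one directed against ZCCHC17, a zinc-finger RNA-binding protein. Of 12 libraries of total RNA, 6 (siNC) were of cells treated with the negative control siRNA and 6 (siZCC) of cells treated with the ZCCHC17 siRNA, and both groups come from a single line. The sample titles add the abbreviation NPC without spelling it out. The labels do not say that replicates came from separate cultures, so p-values measure the spread between these libraries, which may be technical.

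Each alpha or gamma gene has a variable first exon with its own promoter, which encodes the extracellular cadherin repeats, the membrane span and part of the cytoplasmic tail, and this exon is spliced to constant exons shared by the whole cluster. Beta genes have no constant exons. Single neurons choose a few promoters from each cluster, a choice linked to DNA methylation and to looping by CTCF and cohesin, whereas the C-type genes at the ends of the alpha and gamma clusters are expressed more broadly. The proteins bind identical copies on other membranes, and the resulting cell identity code serves self-avoidance of neurites and neuronal survival.

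Between 90755953 and 120023356 counts per library were held in siNC and between 76115083 and 105389055 in siZCC. Values are counts-per-million (CPM) on library sizes scaled by TMM, a factor that corrects for composition, and a gene is called where the quasi-likelihood test of edgeR gave a p under 0.05 after Benjamini-Hochberg adjustment over all 24671 genes. ZCCHC17 stood at 54.0 to 61.0 CPM in siNC and 9.37 to 10.6 CPM in siZCC, with no overlap of the groups. Independently of the siRNA, 6 libraries (3 of each group) held 449 to 1512 counts of the cytokine gene IL1B and the other 6 held 2 to 12, so the groups were also compared within each of these sets. Neuronal markers were present (15 of 15 tested, summing to 4095 to 4572 CPM in siNC and 3689 to 4208 in siZCC), and so were markers of neural progenitors (11 of 11, 6472 to 6895 and 6522 to 7074 CPM) and astrocytes (8 of 8, 1637 to 1860 and 1704 to 2025 CPM).

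Promoter sequences are shown first because the choice of promoter decides which protocadherin a cell makes. RefSeq windows on GRCh38.p14, from 250 bases before to 50 bases after each start, were found for 47 of the 53 genes (13 alpha, 14 beta, 20 gamma). Protocadherin promoters are known for a conserved element with the core CGCT. Within each cluster the 9-letter word that contains CGCT and recurs in the most promoters was taken, and its presence was then counted on both strands. Having been picked from these promoters, the words describe them and test nothing. The alpha word GATGTCGCT was in 9 of 13 alpha promoters (69.2%) and 0.105% of the 35116 RefSeq windows, and the beta word GGTGGCGCT in 13 of 14 beta promoters (92.9%) and 0.501% of windows. The gamma word GCGCCGCTG was in 10 of 20 gamma promoters (50%) and 1.28% of windows. No word occurred in a promoter of another cluster, whereas CGCT alone, which each of them overlaps, was in 46 of the 47 promoters (97.9%) and 70% of all windows. From the first base of the word to the RefSeq start there was a median of 53 bases in alpha (43 to 86), 66 in beta (2 to 84) and 68 in gamma (44 to 99).

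The windows below centre on that word, given in capitals, with 25 bases on each side, all on the plus strand. They show 1 strongly expressed alpha gene, 1 beta gene that rose, PCDHGB4 with those of its closest neighbours that hold the gamma word, and the gamma genes PCDHGB6 and PCDHGA10.
PCDHA4: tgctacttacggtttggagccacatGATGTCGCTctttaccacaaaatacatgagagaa
PCDHB7: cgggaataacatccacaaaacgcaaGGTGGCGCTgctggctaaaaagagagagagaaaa
PCDHGA7: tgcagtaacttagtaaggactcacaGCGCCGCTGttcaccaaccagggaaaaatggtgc
PCDHGB4: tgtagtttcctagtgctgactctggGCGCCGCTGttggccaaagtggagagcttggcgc
PCDHGA8: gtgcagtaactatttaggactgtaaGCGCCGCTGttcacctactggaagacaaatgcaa
PCDHGB5: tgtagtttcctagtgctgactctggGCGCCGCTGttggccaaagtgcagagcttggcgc
PCDHGB6: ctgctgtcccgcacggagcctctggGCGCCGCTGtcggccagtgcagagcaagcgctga
PCDHGA10: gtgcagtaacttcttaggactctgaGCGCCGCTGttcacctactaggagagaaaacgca

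These lie at chr5:140806965-140807023 for PCDHA4, chr5:141172552-141172610 for PCDHB7, chr5:141382636-141382694 for PCDHGA7, chr5:141387604-141387662 for PCDHGB4, chr5:141392555-141392613 for PCDHGA8, chr5:141397850-141397908 for PCDHGB5, chr5:141407911-141407969 for PCDHGB6 and chr5:141412918-141412976 for PCDHGA10. The PCDHGB4 and PCDHGB5 windows had 58 of 59 bases the same, while the other 8 gamma windows with the word matched that of PCDHGB4 at 27 to 38 of 59 bases. The near-identical pair had unlike values. PCDHGB4 had a log2 fold change of 1.43 (siZCC over siNC) and PCDHGB5 one of 0.00, and the 10 gamma genes with the word ranged from -0.25 (PCDHGA7) to 1.43. The PCDHGB5 value rests on 20 to 62 counts per library (95% interval -0.34 to 0.34). Whether promoter sequence bears on these changes was not tested. The whole PCDHGB4 window, chr5:141387448-141387747, plus strand, is printed because this gene moved most, with the same word in capitals.
PCDHGB4: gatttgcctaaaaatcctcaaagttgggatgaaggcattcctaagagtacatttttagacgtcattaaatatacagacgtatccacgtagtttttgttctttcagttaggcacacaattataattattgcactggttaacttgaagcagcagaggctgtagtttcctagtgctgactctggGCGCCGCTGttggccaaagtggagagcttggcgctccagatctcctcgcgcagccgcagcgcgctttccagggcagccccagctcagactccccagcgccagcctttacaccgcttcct

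Expression of each cluster was concentrated in a few genes. In siNC, PCDHA4 took 27.2% ± 0.946 (SD, n = 6) of alpha counts, and together with PCDHA11, PCDHA2 and PCDHA12 it took 75.9%. PCDHB2 took 41.2% ± 1.08 (SD, n = 6) of beta counts, and with PCDHB14 54.6%. PCDHGB6 alone took 62.8% ± 0.791 (SD, n = 6) of gamma counts, and with PCDHGC5, PCDHGC3 and PCDHGB7 80.1%. In siZCC the same leading genes, PCDHA4, PCDHB2 and PCDHGB6, took 27.5%, 39.4% and 63.4% of their clusters.

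Per kilobase of annotated exons in siNC, PCDHGB6 was highest (37.8 CPM per kb), followed by PCDHB2 (18.2 CPM per kb), PCDHGC5 (5.38) and PCDHB14 (5.03). PCDHA13 (0.0750 CPM per kb) and PCDHGB5 (0.0872) were lowest, so levels differed widely between genes of one family. In alpha, PCDHA4 led on counts over 13440 exon bases but ranked 4 per kb (2.8), behind PCDHA11 (4.3), PCDHA2 (3.9) and PCDHA12 (3.2). Alpha and gamma genes share constant exons, which enter these lengths. On the bases that no other gene covers, PCDHGB6 stood at 55.7, PCDHB2 at 18.2 and PCDHGC5 at 9.56 CPM per kb and remained the leading 3, while PCDHB1 (0.106) was lowest. PCDHA4 stood at 3.62 CPM per kb on these bases, below PCDHA2 (9.09), PCDHA11 (8.09) and PCDHA12 (6.72). The plot of levels per kb shows the same few genes standing out in all 12 libraries.

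**Figure D1:**
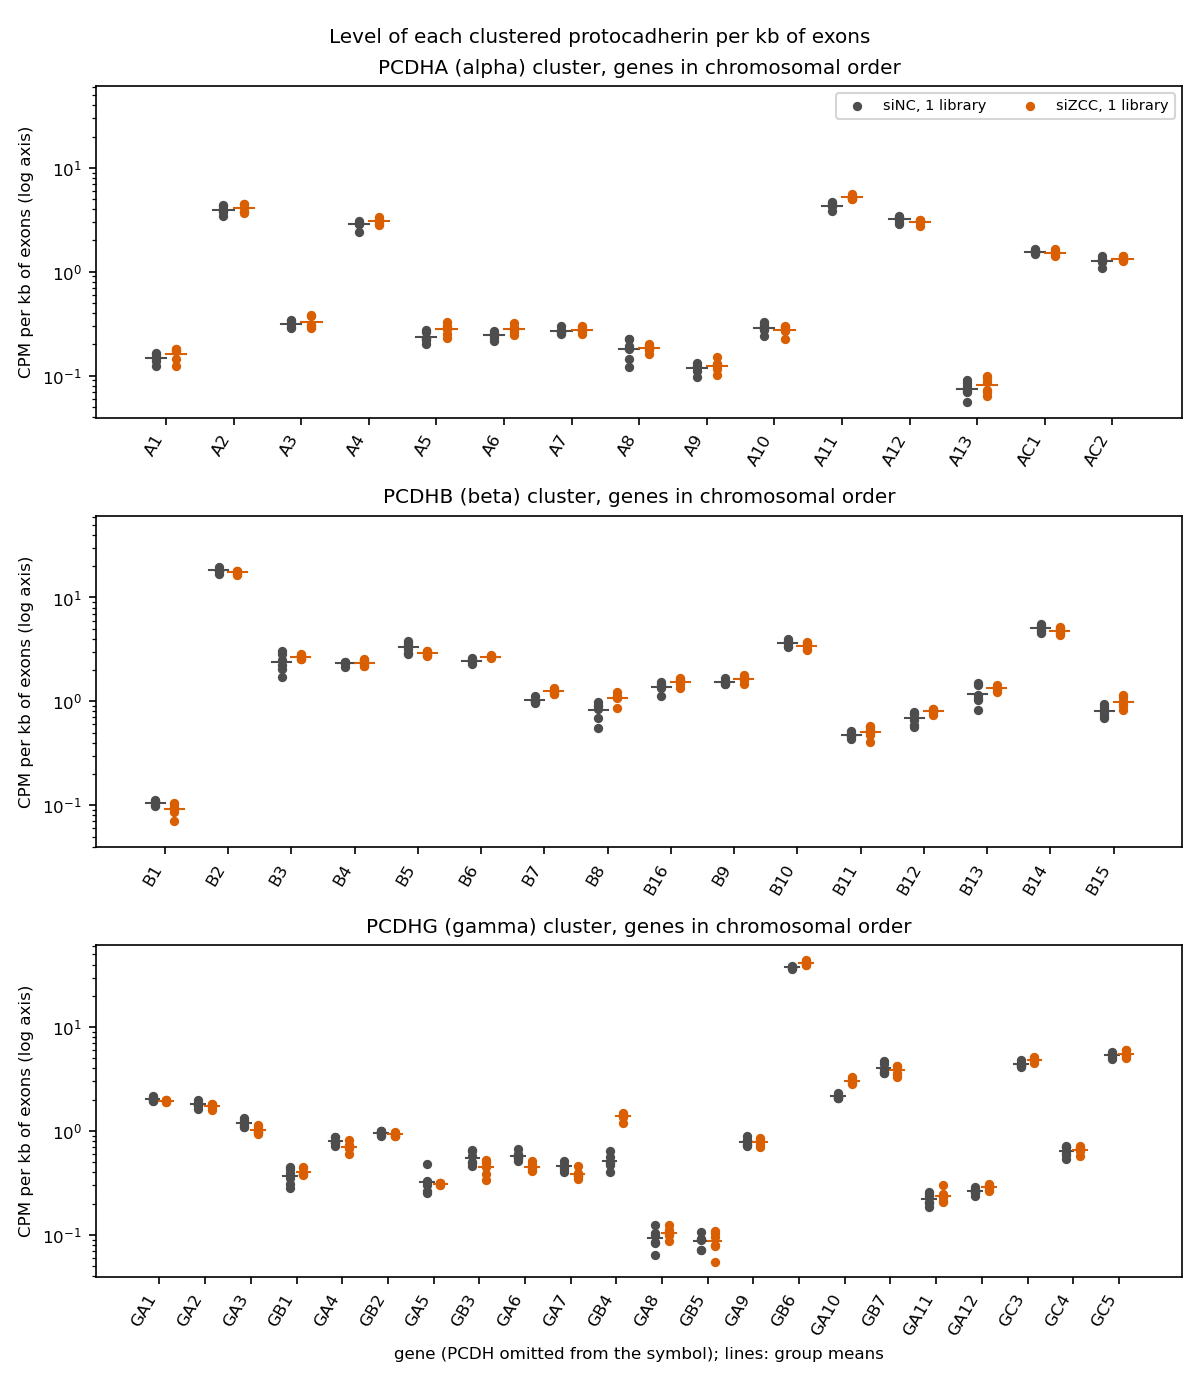
Level of each clustered protocadherin in every library, as CPM per kb of annotated exons on a log axis, with genes in chromosomal order in 3 panels (alpha, beta, gamma). Grey points are siNC libraries, orange points siZCC libraries (6 each) and short lines group means; PCDHGB6 in gamma and PCDHB2 in beta lie far above their clusters, and the points of siNC and siZCC are farthest apart for PCDHGB4.

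How reads of the shared constant exons were counted bears on every alpha and gamma value. Had they been counted for every gene of a cluster, no gene could be lower than that common amount, so the lowest gene bounds it. In alpha, PCDHA13 held 28 to 58 counts per library of alpha totals of 11512 to 17673, and in gamma PCDHGB5 held 20 to 62 counts of totals of 34269 to 49428. An amount counted alike for every gene was thus small beside the cluster totals; other ways of dividing these reads are not bounded by it. Near-identical stretches between variable exons are a separate matter. Of the 50-base words of PCDHGB4's own exon, 23.6% also occur in transcripts of other genes, most often PCDHGB5, against 11.7% for PCDHGA10, 6.94% for PCDHA11 and 4.94% for PCDHGB6. The highest share in the family was that of PCDHB8, 49.35%, most often with PCDHB13, and PCDHB2 had 33.3%. Of the other called genes, PCDHB15 had 19.5%, PCDHGA3 18.5%, PCDHB6 14.7%, PCDHB7 12.2%, PCDHGA6 11.3% and PCDHGA7 0.463%. PCDHGC3, PCDHGC4 and PCDHGC5 share none.

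Across the family, ZCCHC17 knockdown moved few genes far. Of the 53 genes, 12 were called, 9 higher and 3 lower in siZCC, and with PCDHGB4 set aside 11 of 52 (21.2%, 8 higher and 3 lower). Over all genes tested 22.2% were called, 11.4% higher and 10.8% lower, so the family as a whole was called about as often as any gene. Its median log2 fold change was 0.05 with 34 of 53 values above 0, beside a median of -0.0016 and 49.65% above 0 over all genes. The 2 groups did not overlap in 6 genes, all higher in siZCC (PCDHA11, PCDHB6, PCDHB7, PCDHGB4, PCDHGB6 and PCDHGA10). With PCDHGB4 set aside, the groups were apart in 5 of 52 genes, all upward. Over all genes, such separation was seen upward in 5.25% and downward in 4.5%. In bulk RNA, more cells using a promoter and more RNA per cell cannot be told apart. The plot of changes by gene gives each value with its interval.

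**Figure D2:**
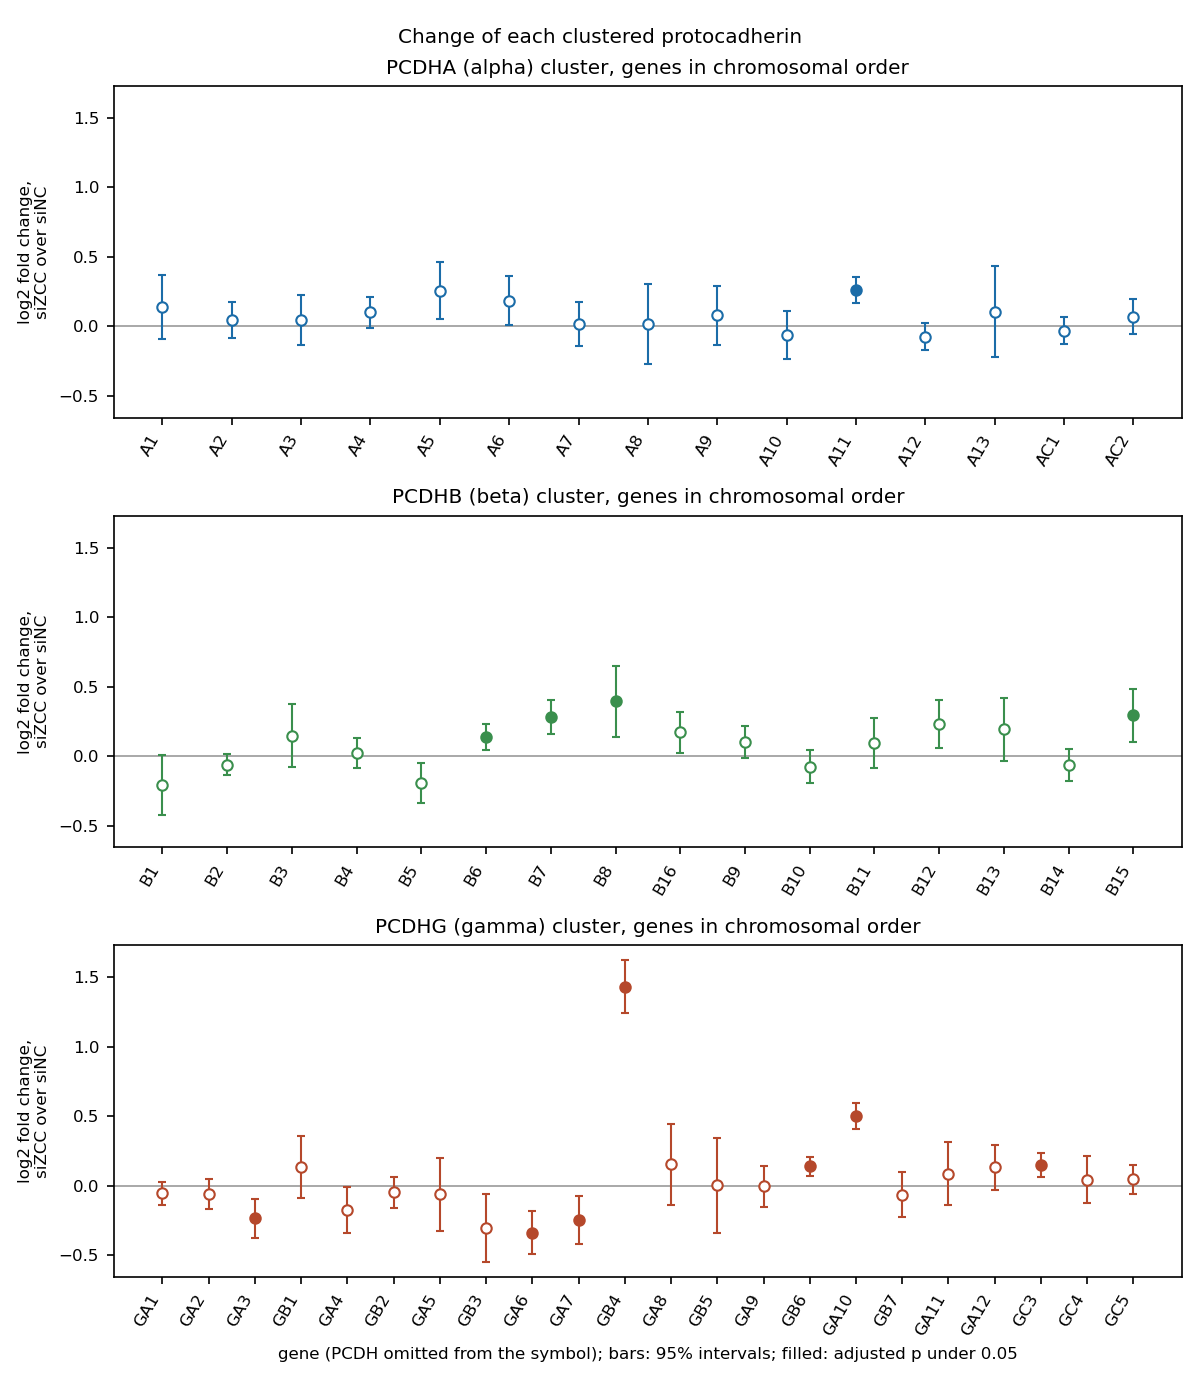
Log2 fold change of each clustered protocadherin, siZCC over siNC, with 95% intervals, genes in chromosomal order in 3 panels (alpha, beta, gamma). Filled points have an adjusted p under 0.05. Most points lie within 0.5 of 0 and PCDHGB4 stands alone at 1.43 near the middle of the gamma cluster. Its point is filled by the same rule, but PCDHGB4 was chosen for its known rise, so its fill and interval are no test.

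In the alpha cluster, PCDHA11 was the only gene called of 15, beside 22.2% called over all genes. It stood at 24.0 to 29.2 CPM in siNC (median 27.2) and 31.2 to 35.1 CPM in siZCC (median 32.1). Every siZCC library was above every siNC library. This came to 0.26 on the log2 scale (SE 0.0437; adjusted p = 0.00044, edgeR's quasi-likelihood test after Benjamini-Hochberg adjustment), from 0.23 to 0.29 when single libraries were left out. PCDHA4, the alpha gene with the most counts, had 32.3 to 41.3 CPM in siNC (median 39.0) and 37.8 to 44.8 in siZCC (median 41.3). Its groups overlapped, and its log2 fold change was 0.10 (SE 0.0532, adjusted p = 0.19 in the same edgeR test). This change became 0.06 without siNC replicate 3, where PCDHA4 was lowest, and 0.00 within the low IL1B set. The C-type genes at the end of the cluster, PCDHAC1 and PCDHAC2, of which PCDHAC2 is known for the spacing of serotonergic axons, were not called, at -0.03 (95% interval -0.13 to 0.06) and 0.07 (-0.06 to 0.20). The 15 alpha genes had a median log2 fold change of 0.07 with 12 above 0 (0.03 with 10 above 0 without siNC replicate 3, and 0.00 with 8 above 0 within the low IL1B set), and 0 were called lower by edgeR, DESeq2 or limma voom, with 0 also at an unadjusted p under 0.05.

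In the beta cluster, 4 of 16 genes were called higher, PCDHB6, PCDHB7, PCDHB8 and PCDHB15, beside 11.4% called higher over all genes. PCDHB6, PCDHB7 and PCDHB8 are neighbours in the order of the 16 genes, which was seen with the values known and was not tested. PCDHB7 stood at 3.66 to 4.24 CPM in siNC (median 3.78) and 4.41 to 5.05 in siZCC (median 4.62). The groups did not overlap, and the log2 fold change was 0.28 (SE 0.0582; adjusted p = 0.0023 by edgeR's quasi-likelihood test). PCDHB6 stood at 7.45 to 8.58 CPM (median 8.05) against 8.60 to 9.21 (median 8.80), a log2 difference of 0.14 (SE 0.0444; edgeR adjusted p = 0.036) with groups just apart. PCDHB8 ran from 1.51 to 2.73 CPM (median 2.40) in siNC and from 2.37 to 3.36 (median 3.02) in siZCC, and PCDHB15 from 2.79 to 3.76 (median 3.23) and from 3.35 to 4.59 (median 3.94). Both pairs of groups overlapped, with log2 fold changes of 0.40 (SE 0.122) and 0.29 (SE 0.0900) and an edgeR adjusted p of 0.027 each. Of these calls, that of PCDHB7 was kept whichever single library was left out. PCDHB6 lost its call without siNC replicates 1, 3 or 6 or siZCC replicates 1, 2 or 6 (edgeR adjusted p 0.0595 to 0.0805) and with no filter (0.109), the replicate block (0.0688), 1 surrogate variable (0.0577) or thinning to equal depth (0.0581). PCDHB8 lost it without siNC replicate 4 or siZCC replicates 2, 3 or 4 (edgeR adjusted p 0.0511 to 0.0602) and PCDHB15 without siNC replicates 1, 3 or 4 or siZCC replicates 1, 3 or 5 (0.0529 to 0.0678). Within the IL1B sets, PCDHB6 and PCDHB15 were called in neither, PCDHB7 in the high set but not the low one (edgeR adjusted p = 0.181), and PCDHB8 in the low set but not the high one (0.393).

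The abundant beta genes did not share this direction. PCDHB2 stood at 69.6 to 80.2 CPM in siNC (median 75.3) and 67.5 to 74.9 in siZCC (median 72.3), and PCDHB14 at 22.1 to 26.7 (median 24.1) and 21.2 to 25.3 (median 23.3). Both had log2 fold changes of -0.06 (SE 0.0354 and 0.0529) and were not called, so the beta sum was level at 182.2 ± 8.47 CPM in siNC and 182.7 ± 4.38 in siZCC (SD, n = 6 each). By edgeR 0 beta genes were called lower, with 1 lower at an unadjusted p under 0.05 and 1 called lower by DESeq2 but 0 by limma voom. That gene, PCDHB5 (log2 fold change -0.19), was the closest to the threshold outside it (edgeR adjusted p = 0.0530), followed by PCDHB12 (0.23; edgeR adjusted p = 0.0539). Closest inside it were PCDHB6 and PCDHGA7 (edgeR adjusted p = 0.0358 and 0.0362).

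In the gamma cluster, with PCDHGB4 set aside, 3 genes were called higher and 3 lower among 21, beside 11.4% higher and 10.8% lower over all genes. PCDHGB4 stood at 3.48, 4.48, 3.40, 3.24, 3.88 and 2.81 CPM in the 6 siNC libraries and at 9.98, 8.31, 9.76, 9.49, 9.65 and 10.4 CPM in the 6 siZCC libraries. The lowest siZCC library was thus well above the highest siNC library. These values rest on 296 to 977 counts per library, and the means were 3.55 ± 0.573 and 9.59 ± 0.695 CPM (SD, n = 6 each), a 2.7-fold difference (log2 1.43, SE 0.0892). Among all genes tested, 19 had a log2 change at least this large in either direction, PCDHGB4 included, and 4 had a larger rise. Its share of gamma counts went from 0.870% to 2.16%, and across 25 other settings and left-out libraries its log2 fold change lay between 1.37 and 1.51.

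PCDHGB4 (ENSG00000253953.2) is gene 11 of 22 in the gamma cluster. In GENCODE v29 on GRCh38 it starts at chr5:141387698 on the plus strand, its first coding exon spans chr5:141387885-141390281, and its exons cover 6906 bases. No other gene covers 2459 of these, and the rest are shared with the constant exons and with a long first exon annotated for PCDHGA8, which starts inside the PCDHGB4 exon at chr5:141390157. The genes on either side showed no rise of this size. PCDHGA6 and PCDHGA7, 13784 and 4959 bases upstream by gene start, fell. PCDHGA6 went from 4.03 to 5.28 CPM (median 4.41) in siNC to 3.28 to 4.08 (median 3.51) in siZCC, a log2 fold change of -0.34 (SE 0.0741; edgeR adjusted p = 0.0036). PCDHGA7 went from 2.21 to 2.82 CPM (median 2.47) to 1.88 to 2.50 (median 2.04), a log2 fold change of -0.25 (SE 0.0806; edgeR adjusted p = 0.036). The groups overlapped slightly in PCDHGA6 and more in PCDHGA7, where the highest siZCC library lay above 4 of the 6 siNC libraries. Downstream, PCDHGA8 had 0.558 to 1.07 CPM in siNC (median 0.804) and 0.751 to 1.08 in siZCC (median 0.899), and PCDHGB5 0.348 to 0.517 (median 0.438) and 0.267 to 0.534 (median 0.429). Neither was called, with log2 fold changes of 0.15 (95% interval -0.14 to 0.44) and 0.00 (-0.34 to 0.34).

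**Figure D3:**
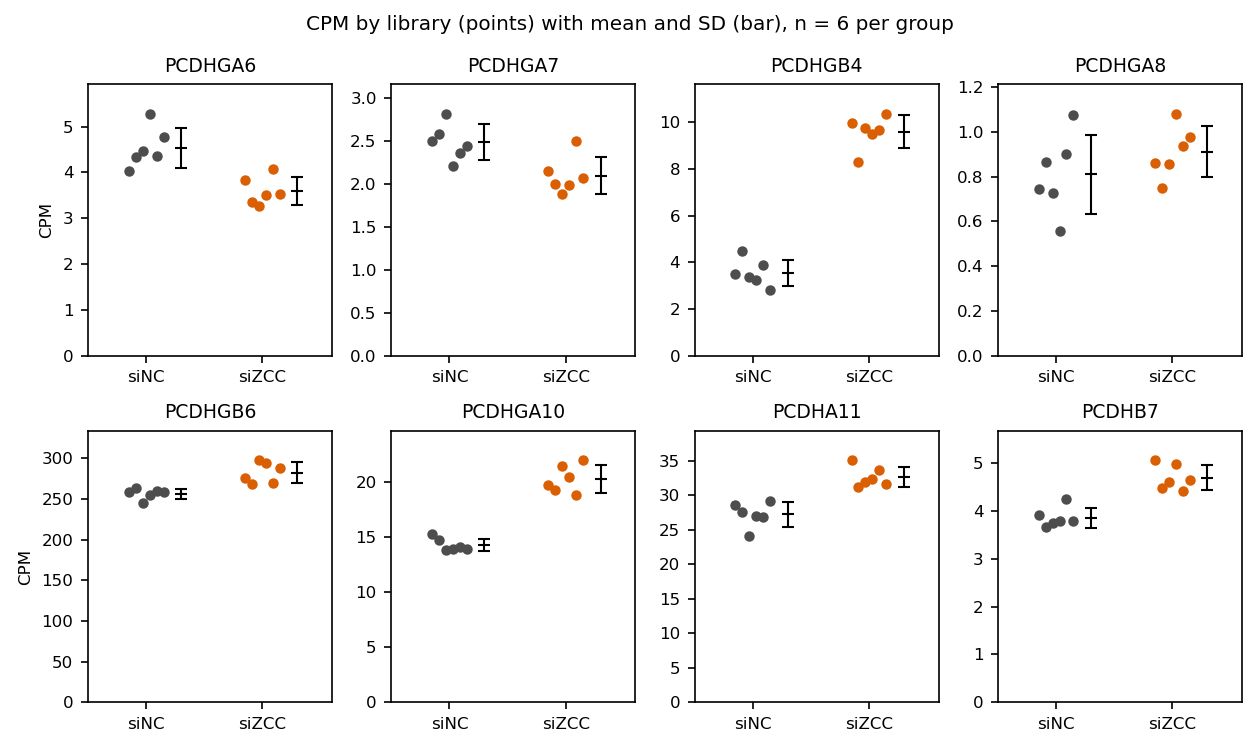
CPM in every library for 8 clustered protocadherins, with siNC points in grey, siZCC points in orange, and the mean and SD of each group (n = 6) as a bar beside them; every axis starts at 0. PCDHGB4 is at 2.81 to 4.48 CPM in siNC and 8.31 to 10.4 in siZCC, while its neighbours PCDHGA6, PCDHGA7 and PCDHGA8 have overlapping groups.

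A second clear rise lay 5 genes further on. PCDHGA10 stood at 13.9 to 15.3 CPM in siNC (median 14.0) and 18.8 to 22.0 in siZCC (median 20.1), with the groups well apart. Its log2 fold change of 0.50 (SE 0.0437; edgeR's quasi-likelihood test, adjusted p = 1.16e-06) was called in every setting and with any single library left out, and 5.05% of all genes had a change at least as large. Immediately before it, PCDHGB6, the dominant gamma gene, stood at 244.9 to 263.5 CPM (median 258) in siNC and 268.3 to 297.7 (median 281.8) in siZCC. These groups did not overlap either, although the difference was small on the log2 scale, 0.14 (SE 0.0314; edgeR adjusted p = 0.0044). PCDHGC3, a C-type protein reported to bind AXIN1, stood at 22.6 to 26.0 CPM (median 23.3) against 24.4 to 27.9 (median 26.6), a log2 fold change of 0.15 (SE 0.0411; edgeR adjusted p = 0.014).

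The other C-type genes of this cluster were not called. PCDHGC4, known for its role in neuronal survival, had 2.67 to 3.54 CPM in siNC (median 3.26) and 2.83 to 3.53 in siZCC (median 3.37), a log2 fold change of 0.04 (95% interval -0.13 to 0.22). PCDHGC5, known as a partner of inhibitory synapse receptors, had 24.7 to 28.6 CPM (median 27.3) against 24.97 to 30.19 (median 27.4), a log2 fold change of 0.05 (-0.06 to 0.15). The groups overlapped almost completely in both. PCDHGA3, at 5.32 to 6.45 CPM (median 5.76) in siNC and 4.57 to 5.55 (median 4.79) in siZCC, completed the called genes with a log2 fold change of -0.23 (SE 0.0665; edgeR adjusted p = 0.018). The call of PCDHGA7 was lost without siNC replicates 1, 2, 3 or 6 or siZCC replicates 2, 3, 4 or 6 (edgeR adjusted p 0.0559 to 0.0825), and also with no filter (0.0616), the replicate block (0.0684) or 1 surrogate variable (0.107). PCDHGC3 lost its call with 1 surrogate variable (log2 fold change 0.12, adjusted p = 0.0923 by edgeR) and within the low IL1B set, where its log2 fold change was 0.10 (edgeR adjusted p = 0.383). Within the IL1B sets of 3 against 3 libraries, PCDHGB6, PCDHGA3 and PCDHGA7 were called in neither set and PCDHGA6 in the low set but not the high one.

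The gamma genes were also counted by position on the 2 sides of PCDHGB4, where most were not called. Of the 10 genes before it, 3 were called lower (PCDHGA3, PCDHGA6 and PCDHGA7), none was called higher by edgeR, DESeq2 or limma voom or had a higher level at an unadjusted p under 0.05, 1 had a log2 fold change above 0, and the median was -0.12. Of the 11 genes after it, 3 were called higher (PCDHGB6, PCDHGA10 and PCDHGC3), none was called lower by the same tools or was lower at an unadjusted p under 0.05, 9 were above 0, and the median was 0.09. Over all genes tested the median was -0.0016, with 11.4% called higher and 10.8% called lower. Across the other settings and left-out libraries the median before PCDHGB4 lay between -0.18 and -0.10 and the median after it between 0.04 (without siNC replicate 3) and 0.14. Within the high IL1B set 6 of the 11 later genes were above 0. This split was made with the values known, around a gene chosen for its rise, and the difference between the sides was not tested. By type, the 12 A genes had a median of -0.06 (1 called higher, 3 lower), the 7 B genes 0.00 (2 higher, PCDHGB4 included) and the 3 C genes 0.05 (1 higher).

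**Figure D4:**
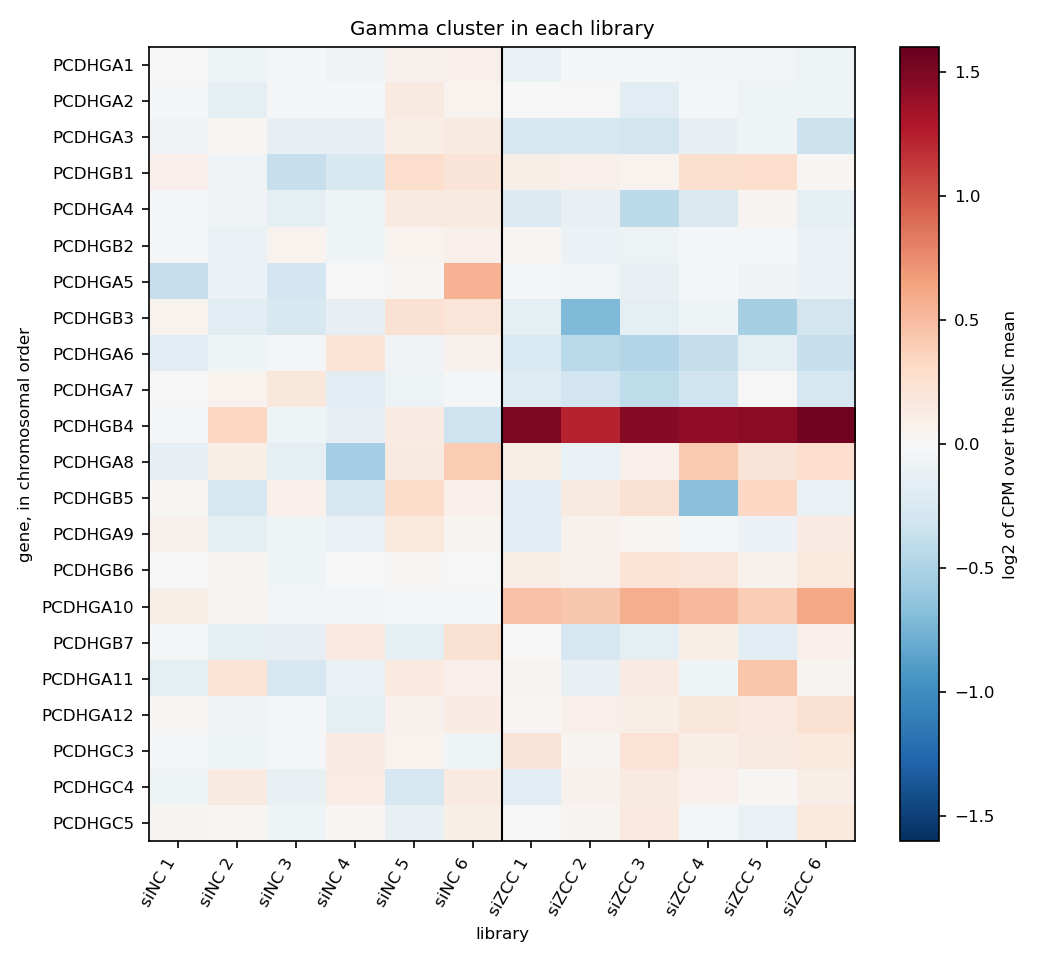
Heat map of the 22 gamma genes, in chromosomal order from top to bottom, in each of the 12 libraries; colour is the log2 of CPM over the siNC mean of that gene (red above, blue below), and a line separates siNC from siZCC. PCDHGB4 is dark red in all 6 siZCC libraries, PCDHGA10 is light red in all 6, and PCDHGA6 and PCDHGA3 are mostly pale blue there.

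Summed over genes, the alpha cluster stood at 124 to 147.3 CPM in siNC (mean 140.6 ± 8.65, SD, n = 6) and 143.9 to 157.4 in siZCC (149.6 ± 5.77), overlapping ranges with a ratio of 1.06. The gamma sum went from 389.9 to 417.9 CPM (407.9 ± 9.51) to 423.7 to 462.3 (444.6 ± 16.6), a ratio of 1.09 with no overlap. Of the 36.7 CPM gained by the gamma mean, PCDHGB6 accounted for 25.8, PCDHGB4 for 6.05 and PCDHGA10 for 5.98 CPM, so these 3 genes together (37.8 CPM) exceeded the gain and the remaining 19 lost slightly on balance. Without PCDHGB4 the ratio was 1.08, and without PCDHGB6, whose absence let the ranges overlap (145 to 159.9 against 155.4 to 169.5 CPM), it was 1.07.

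Genes that act on the clusters or with their proteins, listed with earlier results of these libraries known, moved by small amounts. Over all genes tested, 11.4% were called higher and 10.8% lower, and the counts of these short lists are given as descriptions beside those shares. Of 14 CTCF and cohesin genes, 4 fell and 10 were not called, with a median log2 fold change of -0.05. CTCF itself stood at 85.0 ± 1.62 CPM in siNC and 77.9 ± 1.61 in siZCC (SD, n = 6 each), a log2 fold change of -0.13 (SE 0.0252; edgeR adjusted p = 0.0018). The cohesin subunits STAG1 and RAD21 fell by 0.18 and 0.09 on the log2 scale. Of 17 genes of DNA methylation and silencing, 2 rose and 3 fell, beside 22.2% called in either direction over all genes, with a median of 0.00. Among these, TET1, an enzyme that oxidises methylcytosine, rose by 0.33 and the histone methyltransferase gene EHMT2 by 0.11, whereas TET3, UHRF1, which binds newly replicated DNA, and the de novo methyltransferase gene DNMT3B fell by 0.18, 0.21 and 0.16. EHMT2 lost its call without siNC replicates 1 or 6 or siZCC replicates 1, 4 or 5 (edgeR adjusted p 0.0603 to 0.0799). It also lost it with upper quartile scaling, no filter or 1 surrogate variable. Within the IL1B sets, RAD21, STAG1, DNMT3B and EHMT2 were called in neither. CTCF, TET3 and UHRF1 were called in the low set but not the high one, and TET1 in the high set but not the low one. SMCHD1, a repressor of these clusters, had a log2 fold change of 0.16 (SE 0.0655) that was not called.

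Of 27 genes for proteolysis and for intracellular partners of protocadherins, 8 rose and 1 fell, beside 11.4% called higher and 10.8% lower over all genes, with a median log2 fold change of 0.01. The largest signals by p were APH1A, a gamma-secretase subunit (0.19), PTK2B, a kinase held by the constant domains (0.19), and NLGN2, an inhibitory synapse adhesion protein (0.18), with a fall of SNX1, an endosomal sorting protein (-0.18). In a list of 27 tested genes made of classical and other neural cadherins and of FJX1, which is no cadherin but a relative of the fly kinase gene fj, 9 rose and 3 fell (median 0.08). These included rises of CELSR2, a planar polarity cadherin (0.26), FJX1 itself (0.19) and CDH10 (0.28), and falls of CDH6 (-0.57), CDH2, the neural cadherin (-0.21), and CDH11 (-0.15). Of 10 non-clustered protocadherins tested, none was called by edgeR, DESeq2 or limma voom, and 2 were lower at an unadjusted p under 0.05. Of 25 tested neighbours of the clusters on chromosome 5, 3 rose, GNPDA1 (0.31), RELL2 (0.23) and FCHSD1 (0.14), and 2 fell, IK (-0.11) and HDAC3 (-0.09), a share near the 22.2% called over all genes. TAF7, which lies between the beta and gamma clusters, had -0.07 and DIAPH1, just beyond the gamma cluster, -0.06, both not called. CDH11 lost its call without siNC replicate 6 or siZCC replicate 1 (edgeR adjusted p 0.05 to 0.0535). FCHSD1 lost it without siNC replicates 5 or 6 or siZCC replicate 3 (edgeR adjusted p 0.055 to 0.068). It also did so with 1 surrogate variable or the correction for GC content and length. HDAC3 lost its call without siNC replicates 1, 3 or 4 or siZCC replicates 1, 2 or 5 (edgeR adjusted p 0.0582 to 0.085), and with no filter or the replicate block. Within the IL1B sets, CDH11, FCHSD1, IK and HDAC3 were called in neither. PTK2B and FJX1 were not called in the high set, nor NLGN2 and RELL2 in the low set.

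Markers of cell types and of division also moved between the groups, and their part in the protocadherin values was not tested. The counts below are descriptions, beside 11.4% called higher and 10.8% called lower over all genes tested. All 6 markers of dividing cells fell (median log2 fold change -0.41; summed 530.9 to 607.6 CPM in siNC and 407 to 482 in siZCC). Of 15 neuronal markers 7 fell and 1 rose (median -0.14), of 11 progenitor markers 3 rose and 1 fell (median 0.04), and of 8 astrocyte markers 3 rose and 1 fell (median 0.07). Of 7 mesenchymal markers 1 rose and 2 fell, with sums of 179.1 to 408.7 CPM in siNC and 156.8 to 287.8 in siZCC. Of the 3 pluripotency markers tested 2 rose, and all 5 listed summed to 15.4 to 17.0 CPM in siNC and 19.99 to 21.9 in siZCC. Of 5 oligodendrocyte lineage markers tested 1 fell, and all 7 listed summed to 146.7 to 184.2 and 149.9 to 183.8 CPM. Microglial markers summed to 1.27 to 2.37 CPM in siNC and 1.43 to 2.20 in siZCC, with 7 of 9 too low to test, and endothelial markers to 1.17 to 1.72 and 1.11 to 1.56 CPM, with CDH5 too low to test.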

How the data were processed

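The authors deposited raw whole-number counts per gene symbol for 12 libraries. The submitters' processing notes name bcl2fastq 2.17, STAR 2.7.6a, featureCounts 2.0.1 and GRCh38; the annotation release, the strand setting and the treatment of reads on overlapping or near-identical genes are not given in the sources used here. Libraries were made with a directional kit, per the labels' protocols.

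Counts were tested as deposited in edgeR 4.0.16 (R 4.3.3): filterByExpr defaults (0.0997 CPM), TMM scaling, glmQLFit and glmQLFTest without covariates, Benjamini-Hochberg adjustment over 24671 genes, threshold 0.05. An SE is the log2 fold change divided by the square root of F. The scripts were tested on simulated data. Depth was 76115083 to 120023356 counts per library, and precision is set by the spread between libraries (median biological coefficient of variation 7.71%). Alternatives used DESeq2 1.42.0, limma 3.58.1 and sva 3.50.0, other scalings and filters, blocks, thinning, a correction for GC content and length, and leaving out libraries.

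Exon lengths come from GENCODE v29, promoters from RefSeq. PCDHA14 matches the symbols but is a pseudogene and was left out. Members and lists were chosen with earlier results of these data known. Named were PCDHGB4, the 2 genes on each side of it and the C-type genes. In each cluster the 2 genes with the most counts in siNC and up to 5 called genes per direction were also named. In each list up to 3 called genes per direction by p were named. PCDHB5, PCDHB12, SMCHD1, TAF7, DIAPH1 and genes named only for their level, promoter or position were added after values were seen.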

Additional observations from a re-analysis of the deposited data

Results flagged for a closer look

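In siNC replicate 3, 3 values lay far below the other 5 siNC libraries, judged by the gap to the nearest library as a share of the group's range against Dixon's 95% limit for 6 libraries. PCDHA4 stood at 32.28 CPM there and at 38.54 to 41.28 CPM in the others (gap 0.695 of the range). The sum of the alpha cluster was 124 CPM against 139.1 to 147.3 (0.648), and the sum of the gamma cluster was 389.9 CPM against 408 to 417.9 (0.646). Chance gives such a gap in about 1 in 20 groups, so 2.5 were due by chance among the 50 groups examined, had these been independent. The 3 values are not independent, as all lie in siNC replicate 3 and PCDHA4 enters the alpha sum. The beta sum was also lowest there among siNC libraries (168.6 CPM), though within the limit. Whether chance gave these low values was not tested. Without this library the log2 fold change of PCDHA4 was 0.06 in place of 0.10, the alpha median was 0.03 in place of 0.07, and 11 clustered protocadherins were called by edgeR, 7 higher and 4 lower.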

How the results depend on the processing

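PCDHA11 and PCDHGA10 kept their calls under all 25 alternatives, and PCDHGB4 stayed between 1.37 and 1.51 (log2). On all 12 libraries, 4409 (1 surrogate variable) to 6458 (GC content and length) genes and 10 to 15 clustered protocadherins were called. Within the low IL1B set (3 against 3 libraries) 1602 genes and 5 members (4 higher, 1 lower) were called, and within the high set 2043 and 5, all higher; both sets have fewer libraries. With 1 library left out the calls numbered 4484 to 5626 over all genes (fewest without siNC replicate 6, most without siZCC replicate 2), and 9 to 14 over the members (fewest without siZCC replicate 2 or 3, most without siNC replicate 5 or siZCC replicate 5). The labels do not say that replicate numbers pair the libraries. Same-numbered deviations correlated at -0.077 to 0.018, and 0 libraries correlated best with their own number. Every same-numbered pair joined a high and a low IL1B library, so these correlations cannot decide whether the numbers pair. With the replicate block 4902 genes and 10 members (8 higher, 2 lower) were called. Signs changed for genes not called. PCDHGB5 (0.0025) had -0.0061 with upper quartile scaling, -0.0038 with no filter, -0.0112 with limma voom, -0.0002 with the replicate block, -0.0031 with the IL1B block, -0.0708 within the high set, -0.0096 with GC content and length, -0.0183 after thinning, and -0.0697 to 0.0982 with single libraries left out. PCDHGC4 and PCDHGC5 had -0.0883 and -0.0594 within the high set, and PCDHGC4 -0.0034 to 0.081 with single libraries left out; the causes were not tested. Levels per kb of the named members rose by up to 2.81 times on unshared bases, by construction. Genes with low counts, such as PCDHGB5 and PCDHA13, are limited by depth.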
